A study of Homo sapiens with 12 samples.

Results

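FOXA1, KLK3, KLK2, TMPRSS2, SLC45A3, ABCC4, PMEPA1 and FKBP5 are genes tied to androgen signalling in the prostate. They were taken by gene name from the raw count table, where these 8 genes stand among 58735, and all 8 passed the filter on low counts that left 16646 genes for testing. RNA was sequenced from C4.2B cells, an established castration-resistant human prostate cancer line, in 4 arms of 3 libraries each. The arms were DMSO vehicle, ipatasertib at 0.25 μM (an AKT inhibitor, AKTi), tazemetostat at 1 μM (an EZH2 inhibitor, EZH2i) and both agents (combination). Cells of the EZH2i and combination arms had received tazemetostat for 6 days before the 24 hours of cotreatment. Cells of all arms, DMSO included, spent these 24 hours in charcoal-stripped serum, from which most steroid hormones have been removed. Total counts ran from 14133755 to 22276417 per library. The data are thus from 1 line at 1 time. The authors describe triplicate plates seeded the day before cotreatment, and the labels do not say whether libraries of an arm came from separate cultures. The p-values therefore measure the spread between these libraries, which may be that of parallel plates and thus technical.

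Androgens act through a nuclear receptor that is held ready by chaperones, binds hormone, moves to DNA and recruits coactivators at androgen response elements. FOXA1 opens chromatin for the receptor, and the other genes are induced by androgen in prostate cells. EZH2 is the enzyme that places the repressive mark H3K27me3, and AKT is a kinase downstream of PI3K that is often overactive in prostate cancer. The design asks how each agent, and then both together, changed these genes.

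Promoter sequences are given first, because KLK3 and KLK2 lie side by side and changed in the same direction. Both are on the plus strand of chromosome 19 in the count table (hg38), KLK3 at chr19:50854915-50860764 and KLK2 at chr19:50861568-50880567, with 803 bases between them. The windows shown here are the 250 bases before the RefSeq start of each gene (GRCh38.p14, plus strand), chr19:50854665-50854914 for KLK3 and chr19:50873189-50873438 for KLK2. They are shown because the KLK3 promoter is known for an androgen response element close to the start. Capitals mark AGAACA, a half-site of that element, in KLK3, and GGAACA, which was searched separately, in KLK2.
KLK3: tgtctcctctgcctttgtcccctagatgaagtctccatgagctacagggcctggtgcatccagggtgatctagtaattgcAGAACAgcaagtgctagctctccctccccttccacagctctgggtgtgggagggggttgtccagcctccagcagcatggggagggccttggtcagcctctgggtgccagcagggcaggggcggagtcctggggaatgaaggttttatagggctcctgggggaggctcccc
KLK2: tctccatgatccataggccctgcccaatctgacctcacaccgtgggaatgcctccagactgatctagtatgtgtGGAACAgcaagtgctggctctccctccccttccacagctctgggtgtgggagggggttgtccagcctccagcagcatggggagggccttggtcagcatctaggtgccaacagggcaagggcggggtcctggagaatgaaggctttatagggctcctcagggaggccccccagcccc
The KLK3 window held AGAACA at positions -170 to -165, counted back from the start, and the KLK2 window held GGAACA at -176 to -171. With a shift of 6 bases, 185 of 244 aligned bases (75.8%) were identical between both windows. AGAACA or its reverse complement occurred in 12.4% of 35116 RefSeq promoters of this length, and GGAACA or its reverse complement in 11.6%. The RefSeq start of KLK2 lies inside the longer gene that the count table gives. RefSeq windows were found for 7 of the 8 genes (11 windows, since FKBP5 and PMEPA1 have several starts), and not for TMPRSS2. AGAACA or its reverse complement was present in 2 of these 11 windows, beside 12.4% of all promoters, which is too few windows to tell these shares apart. By gene this was 2 of 7, KLK3 and PMEPA1, and genes with several windows had more places for a match. GGAACA or its reverse complement was in 1 of the 11 windows, that of KLK2, beside 11.6% of all promoters. The forkhead core TGTTTAC, searched on both strands and present in 2.98% of all promoters, was in none of the windows. The full palindrome of half-sites, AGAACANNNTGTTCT, was in 1 of 35116 promoters (0.00285%) and in no window of the 7 genes. With so rare a match, its absence from 11 windows does not show that they lack a full element. Only exact letters were searched, so full elements with mismatches were not looked for, and the capitals do not mark where an element ends. A match is a description of the letters, and the libraries hold no measurement of binding.

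Against DMSO, 7 of the 8 genes were higher and FKBP5 was lower in each treated arm (edgeR quasi-likelihood test, Benjamini-Hochberg adjusted p under 0.05 over all 16646 genes). This held for AKTi, where 20.6% of all genes tested were higher and 21.9% lower. It held for EZH2i, with 32.6% of all genes higher and 31.5% lower, and for the combination, with 38.0% higher and 35.2% lower. The median log2 fold change of the 8 genes was 0.79 with AKTi, 1.29 with EZH2i and 1.89 with the combination, beside medians over all genes tested of 0.01, 0.03 and 0.06. Scaling by library size alone moved the median of all genes in the combination to 0.26, and left all of these calls as they were. The comparisons with DMSO share its 3 libraries. The 8 genes were chosen with earlier results of these data known, so these counts are not independent of the data. Together the 8 genes took 0.201% of all counts in DMSO, 0.348% with AKTi, 0.462% with EZH2i and 0.67% with the combination.

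**Figure D1:**
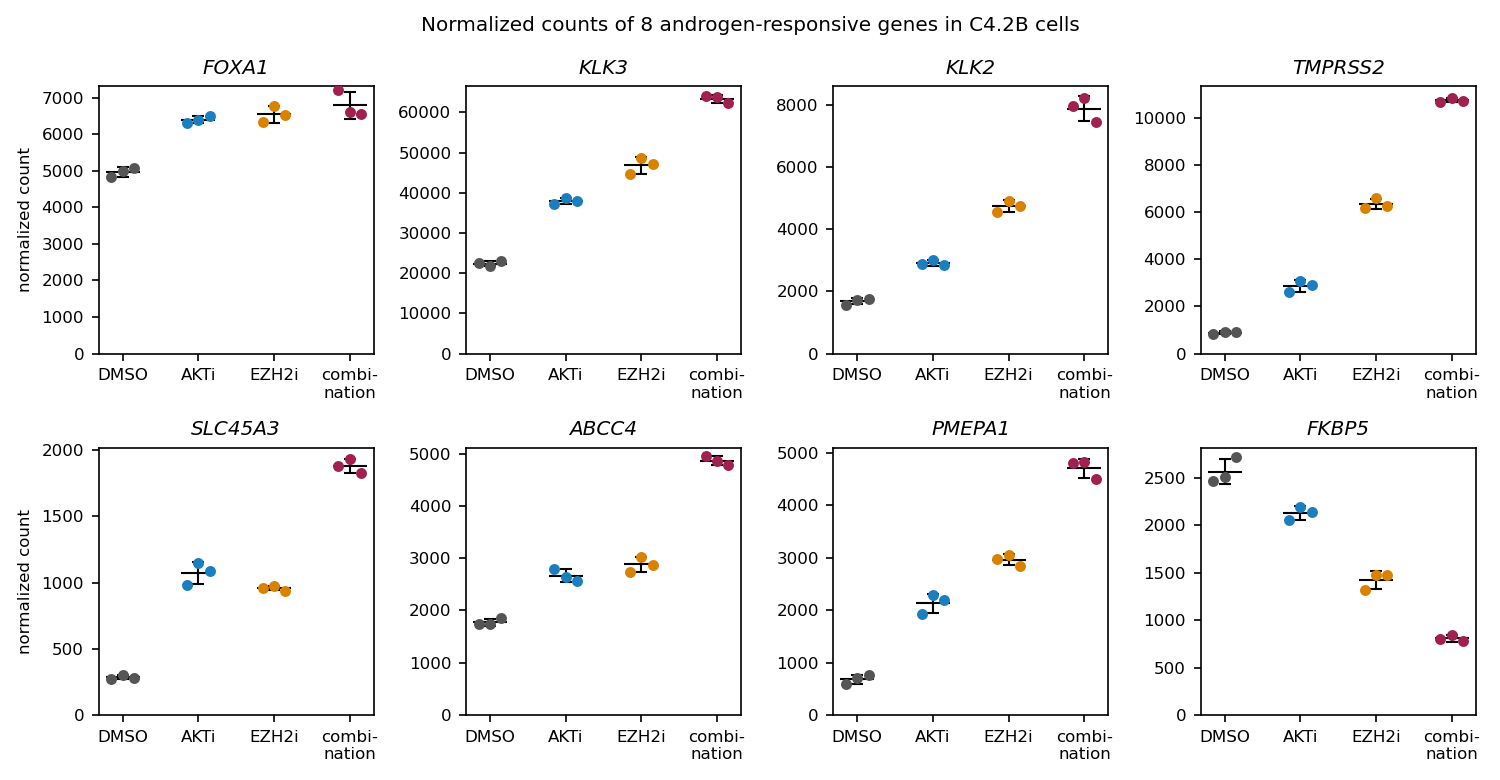
Normalized counts (the authors' counts divided by a size factor per library, vertical axis from 0) of each gene in each library of the 4 arms, with the mean and SD of 3 libraries. TMPRSS2 climbed from 883 in DMSO to 10751 in the combination, and FKBP5 went from 2568 to 807.

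FOXA1 (ENSG00000129514, chr14:37589984-37596059, minus strand), the pioneer factor, had the smallest rise. Its normalized counts were 4816, 5003 and 5066 in DMSO, 6312, 6387 and 6489 with AKTi, 6321, 6762 and 6528 with EZH2i, and 7196, 6601 and 6552 with the combination. Every treated library lay above every DMSO library, while the EZH2i libraries overlapped those of AKTi and of the combination. FOXA1 was 1.30-fold higher with AKTi (log2 0.38 ± 0.05, SE, adjusted p = 1.8e-07). It was 1.33-fold higher with EZH2i (log2 0.41 ± 0.05, adjusted p = 1.1e-08) and 1.39-fold higher with the combination (log2 0.47 ± 0.05, adjusted p = 2.6e-10). Adding EZH2i to AKTi gave a log2 difference of 0.09 (95% interval -0.01 to 0.20, adjusted p = 0.1), and adding AKTi to EZH2i gave 0.06 (-0.04 to 0.17, adjusted p = 0.33), so neither addition passed the test. The first was called under 4 alternatives (0.23 with library size only, 0.22 with the upper quartile, 0.16 with at least 10 counts in every library and 0.09 with only the arms compared), and the second under 1 (0.13 with the upper quartile). The gene TTC6 overlaps FOXA1 on the opposite strand with a mean of 517 counts against 6347 for FOXA1, and the strand setting of the counting is not given, so a share of these reads could belong to either gene.

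KLK3 (ENSG00000142515) encodes prostate-specific antigen, a protease secreted by luminal cells, and was by far the most abundant of the 8. It had 22571, 21675 and 22906 normalized counts in DMSO, 37284, 38583 and 37996 with AKTi, 44612, 48769 and 47103 with EZH2i, and 64099, 63911 and 62236 with the combination. The 4 arms did not overlap and stood in that order. KLK3 was 1.71-fold higher with AKTi (log2 0.77 ± 0.05, adjusted p = 3.3e-15), 2.11-fold higher with EZH2i (log2 1.07 ± 0.05, adjusted p = 4.2e-20) and 2.87-fold higher with the combination (log2 1.52 ± 0.05, adjusted p = 4e-25).

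KLK2 (ENSG00000167751) encodes a related secreted protease that can activate the KLK3 product. Its normalized counts were 1572, 1708 and 1752 in DMSO, 2870, 3008 and 2855 with AKTi, 4554, 4925 and 4751 with EZH2i, and 7953, 8234 and 7451 with the combination. The arms again did not overlap, and the steps were larger than for KLK3. KLK2 was 1.75-fold higher with AKTi (log2 0.80 ± 0.06, adjusted p = 3.8e-14), 2.85-fold higher with EZH2i (log2 1.51 ± 0.06, adjusted p = 6e-23) and 4.76-fold higher with the combination (log2 2.25 ± 0.06, adjusted p = 8.8e-29). KLK2 and KLK3 are close paralogs, so reads from shared stretches may have been lost or assigned to the wrong gene.

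The ratio of KLK3 to KLK2 counts within a library does not depend on how libraries are scaled. It was 13.4 ± 0.87 in DMSO (SD, n = 3) and 13.0 ± 0.24 with AKTi, and the ranges overlapped (exact permutation test, two-sided, p = 0.8). With EZH2i it was 9.87 ± 0.064 and with the combination 8.06 ± 0.30, and no library of either arm reached the lowest DMSO value of 12.7. Both differences gave p = 0.1, the smallest value that 3 libraries against 3 allow in the exact permutation test. The log2 difference from DMSO was -0.44 with EZH2i and -0.73 with the combination, so KLK2 gained on KLK3 in the arms with EZH2i. The combination was also below EZH2i alone by a log2 difference of -0.29 (exact permutation p = 0.1).

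**Figure D2:**
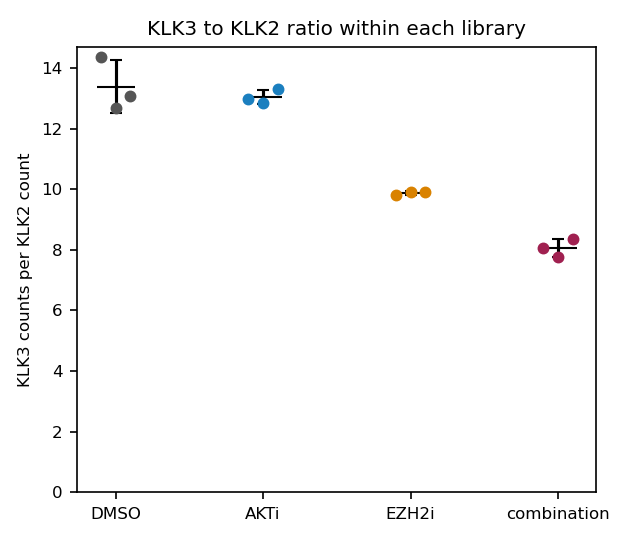
KLK3 counts per KLK2 count (vertical axis from 0) in each library of the 4 arms, with mean and SD of 3 libraries. DMSO and AKTi overlap near 13, and the EZH2i libraries (9.80 to 9.91) and combination libraries (7.76 to 8.35) lie below them.

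TMPRSS2 (ENSG00000184012, chr21:41464551-41531116, minus strand), a membrane-bound serine protease whose androgen-driven promoter is often fused to ETS genes in prostate cancer, had the largest rise of the 8 with EZH2i and with the combination. Its normalized counts were 813, 917 and 919.6 in DMSO, 2614, 3082 and 2912 with AKTi, 6166, 6586 and 6280 with EZH2i, and 10683, 10852 and 10720 with the combination. No library of one arm reached the range of another. TMPRSS2 was 3.27-fold higher with AKTi (log2 1.71 ± 0.06, adjusted p = 8e-22), 7.23-fold higher with EZH2i (log2 2.85 ± 0.06, adjusted p = 7.5e-30) and 12.3-fold higher with the combination (log2 3.62 ± 0.06, adjusted p = 2.1e-33). In the combination it ranked 317 among all genes tested by log2 fold change.

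SLC45A3 (ENSG00000158715, chr1:205657851-205680459, minus strand), or prostein, is a transporter of the prostate epithelium. It started lowest, with 271, 302 and 279.9 normalized counts in DMSO, and had 983, 1149 and 1091 with AKTi, 962, 971 and 939 with EZH2i, and 1880, 1937 and 1827 with the combination. It is the one gene of the 8 whose mean was higher with AKTi than with EZH2i among those that rose. SLC45A3 was 3.81-fold higher with AKTi (log2 1.93 ± 0.08, adjusted p = 3.3e-21), 3.39-fold higher with EZH2i (log2 1.76 ± 0.08, adjusted p = 3.5e-21) and 6.72-fold higher with the combination (log2 2.75 ± 0.07, adjusted p = 5.6e-28). The difference of EZH2i from AKTi was -0.17 (95% interval -0.30 to -0.03, adjusted p = 0.036), and this call was lost under several settings, with -0.08 (adjusted p = 0.32) when libraries were scaled by size only. It was also lost without IPATA replicate B (-0.14), IPATA replicate C (-0.18), TAZ replicate B (-0.18) or TAZ replicate C (-0.18).

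ABCC4 (ENSG00000125257, chr13:95019829-95301475, minus strand) is an export pump for cyclic nucleotides, prostaglandins and drugs. It had 1736, 1733 and 1846 normalized counts in DMSO, 2794, 2641 and 2557 with AKTi, 2734, 3031 and 2869 with EZH2i, and 4953, 4860 and 4773 with the combination. The single agents overlapped each other, and the combination stood well above both. ABCC4 was 1.51-fold higher with AKTi (log2 0.60 ± 0.06, adjusted p = 5.2e-11), 1.64-fold higher with EZH2i (log2 0.71 ± 0.06, adjusted p = 1e-13) and 2.78-fold higher with the combination (log2 1.48 ± 0.06, adjusted p = 1.8e-23). The difference between the single agents was 0.11 (95% interval 0.0003 to 0.22, adjusted p = 0.09), and it was called at 0.20 with library size only, 0.17 with the upper quartile and 0.14 with at least 10 counts in every library.

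PMEPA1 (ENSG00000124225, chr20:57648392-57711536, minus strand) encodes a membrane protein that binds SMADs and dampens TGF-beta signalling, and is induced by androgen and by TGF-beta. It had 589.6, 702 and 763 normalized counts in DMSO, 1935, 2284 and 2189 with AKTi, 2972, 3057 and 2851 with EZH2i, and 4807, 4817 and 4502 with the combination. The arms did not overlap, although the DMSO libraries spread more than for any other of the 8 genes (coefficient of variation 12.8%). PMEPA1 was 3.13-fold higher with AKTi (log2 1.65 ± 0.07, adjusted p = 6.1e-20), 4.34-fold higher with EZH2i (log2 2.12 ± 0.07, adjusted p = 2.3e-24) and 6.95-fold higher with the combination (log2 2.80 ± 0.07, adjusted p = 9.1e-29). The antisense gene NKILA overlaps it with a mean of 158 counts against 2767, and without a known strand setting these reads cannot be told apart.

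FKBP5 (ENSG00000096060, chr6:35573585-35728583, minus strand) moved the other way. It encodes a co-chaperone of steroid receptor complexes and is a standard target of androgens and of glucocorticoids. Its normalized counts were 2469, 2512 and 2724 in DMSO, 2053, 2198 and 2136 with AKTi, 1316, 1476 and 1475 with EZH2i, and 804, 842 and 776 with the combination. The arms did not overlap, and each step was downward. FKBP5 was 1.20-fold lower with AKTi (log2 -0.26 ± 0.06, adjusted p = 4e-04), 1.79-fold lower with EZH2i (log2 -0.84 ± 0.06, adjusted p = 5.9e-15) and 3.14-fold lower with the combination (log2 -1.65 ± 0.06, adjusted p = 1.7e-23).

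**Figure D3:**
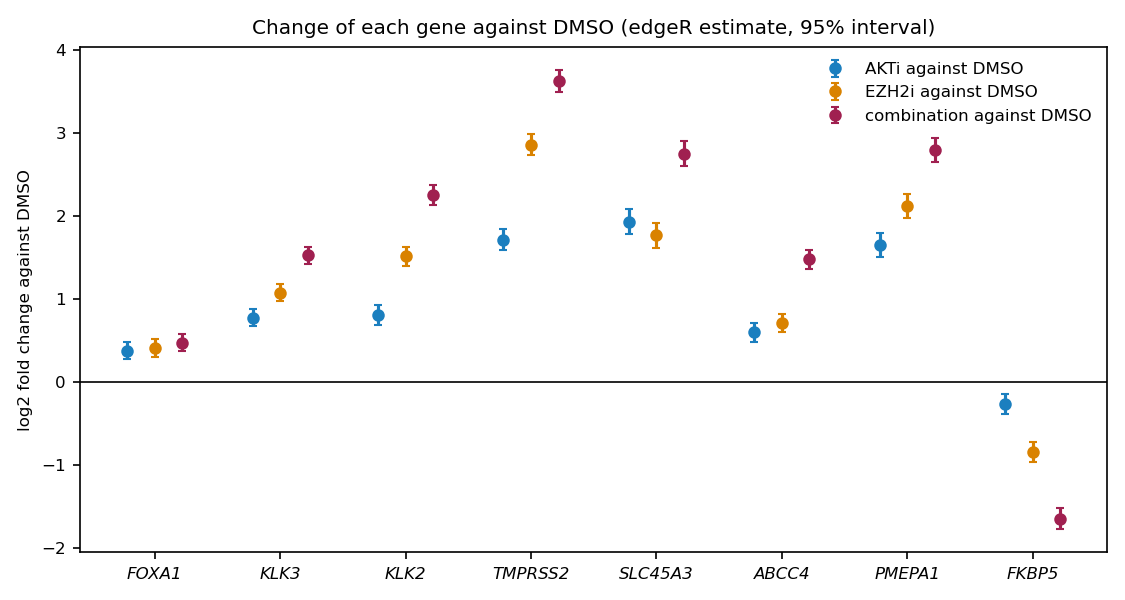
Log2 fold change of each gene against DMSO (vertical axis) for AKTi, EZH2i and the combination, as the edgeR estimate with its 95% interval. All intervals lie off 0, FKBP5 is the one gene below it, and TMPRSS2 in the combination is highest at 3.62.

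Levels were compared between genes in TPM, that is counts per base of the deposited gene length, scaled to the same total in each library. In DMSO the order was KLK3 (969.5 ± 46 TPM), FOXA1 (250.3 ± 9.8), KLK2 (52.7 ± 3.5), FKBP5 (48.6 ± 3.5), ABCC4 (41.2 ± 2.3), TMPRSS2 (29.0 ± 2.2), PMEPA1 (24.5 ± 3.4) and SLC45A3 (15.4 ± 0.74). The ranges of KLK2 and FKBP5 over the DMSO libraries overlapped, as did those of TMPRSS2 and PMEPA1. Within each DMSO library the order was kept. KLK2 and FKBP5 had 49.2 and 46.5 TPM in A, 52.7 and 46.7 in B, and 56.2 and 52.6 in C. TMPRSS2 and PMEPA1 had 26.6 and 21.0 in A, 29.6 and 24.6 in B, and 30.9 and 27.9 in C. These orders were not tested. In the combination TMPRSS2 (413 ± 11) stood beside FOXA1 (399.8 ± 14), with overlapping libraries, after KLK3 (3210 ± 36). KLK2 (289 ± 10), PMEPA1 (197 ± 3.5), ABCC4 (132 ± 1.1) and SLC45A3 (119 ± 2.9) followed, and FKBP5 (17.8 ± 0.62) was last. FKBP5 was already last with AKTi (41.7 ± 0.71) and with EZH2i (29.5 ± 2.6). Without the division by length, FKBP5 ranked 3 and KLK2 ranked 5 in DMSO.

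Adding EZH2i to AKTi raised 6 of the 8 genes and lowered FKBP5, beside 32.1% of all genes in each direction. The differences ran from 0.75 (KLK3) to 1.92 (TMPRSS2) on the log2 scale among the 6, and FKBP5 was 2.62-fold lower. Adding AKTi to EZH2i also raised 6 and lowered FKBP5, beside 21.1% of all genes higher and 25.7% lower, with FOXA1 again outside the threshold. Here SLC45A3 had the largest difference (1.98-fold, log2 0.99 ± 0.06, adjusted p = 1.8e-15) and KLK3 the smallest of the 6 (1.36-fold, log2 0.45 ± 0.05, adjusted p = 1.5e-09). Set directly against AKTi, EZH2i gave higher KLK2, KLK3, TMPRSS2 and PMEPA1 and lower FKBP5 and SLC45A3, where 25.4% of all genes were higher and 25.1% lower. TMPRSS2 differed most between the single agents, at 2.21-fold (log2 1.15 ± 0.06, adjusted p = 9.6e-19), followed by KLK2 at 1.63-fold (log2 0.70 ± 0.06, adjusted p = 2.3e-13).

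The interaction compares the combination with the sum of the single-agent log2 fold changes. It was below 0 and called for 6 of the 8 genes and above 0 for none, where 17.5% of all genes tested were called below 0 and 10.7% above. For 5 of the 6, which had risen with each agent, the combination rose by less than the sum. TMPRSS2 reached 3.62 where the sum was 4.56 (interaction -0.94 ± 0.08, adjusted p = 3.6e-11), and AKTi raised it 3.27-fold without EZH2i and 1.71-fold with it. PMEPA1 reached 2.80 against a sum of 3.76 (-0.97 ± 0.10, adjusted p = 4.7e-10), and SLC45A3 reached 2.75 against 3.69 (-0.94 ± 0.10, adjusted p = 2.4e-09). The shortfall was smaller for KLK3 (-0.32 ± 0.07, adjusted p = 4.7e-04) and FOXA1 (-0.31 ± 0.07, adjusted p = 0.001).

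FKBP5 had the same sign of interaction with the opposite reading, because it fell. It dropped by 1.65 in the combination where the sum of the single agents was -1.10, so the fall exceeded the sum (interaction -0.55 ± 0.09, adjusted p = 5.3e-06). AKTi lowered it 1.20-fold without EZH2i and 1.75-fold with it. KLK2 gave -0.06 (95% interval -0.22 to 0.10, adjusted p = 0.6) and ABCC4 gave 0.17 (0.01 to 0.33, adjusted p = 0.11), and neither passed the test.

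**Figure D4:**
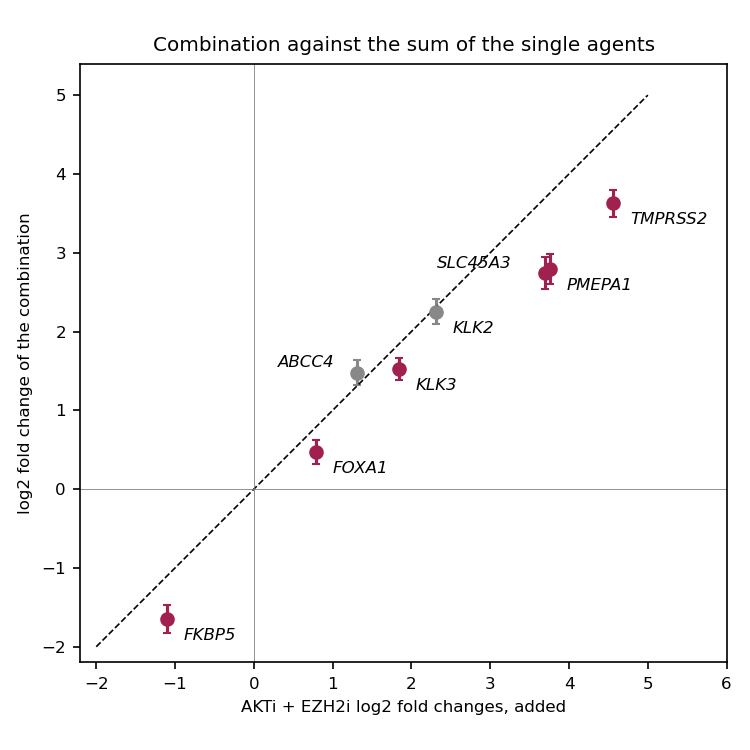
Sum of the AKTi and EZH2i log2 fold changes (horizontal axis) against the log2 fold change of the combination (vertical axis) for each gene, with the dashed line where both are equal and bars for the 95% interval of the interaction. KLK2 and ABCC4 (grey, interaction not called) have bars that reach or lie near the line, and TMPRSS2, PMEPA1 and SLC45A3 lie farthest below it.

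Among the 8 genes, the patterns over the 12 libraries were nearest for KLK3 and ABCC4, with a root mean square difference of 0.207 in log2 CPM (counts scaled to a fixed library total) after centring on DMSO. SLC45A3 and PMEPA1 were next (0.241), and KLK2 and KLK3 followed (0.427) despite lying side by side. FKBP5 was nearest to FOXA1, at 1.27. Among 9705 protein-coding genes, the nearest to KLK3 was LRBA (0.0606), the nearest to ABCC4 was ERBB3 (0.0491), the nearest to FOXA1 was AGO1 (0.0481) and the nearest to KLK2 was MAP1B (0.0868). FKBP5 was closest to ATP5F1B (0.0607), a subunit of the mitochondrial ATP synthase, SCD (0.0688), a fatty acid desaturase, and AHSA1 (0.0776), which stimulates the ATPase of HSP90. The nearest genes were farther away for TMPRSS2 (SLC2A12, 0.181), PMEPA1 (KLF13, 0.184) and SLC45A3 (PMEPA1, 0.241).

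Other genes that androgens induce were mixed. Their list and the lists below were written with earlier results of these data known, so their counts are not independent of these data. Of 39 tested in a list of 40 written from general knowledge, 20 were higher and 8 lower with AKTi (5 lower when libraries were scaled by size only or by the upper quartile), 23 and 12 with EZH2i, and 21 and 12 with the combination (26 and 11 under either of these scalings). Of all genes tested, 20.6% were higher and 21.9% lower with AKTi, 32.6% and 31.5% with EZH2i, and 38.0% and 35.2% with the combination, so the lower genes of the list were near the share of all genes in each arm. The list's median log2 fold changes were 0.31, 0.43 and 0.86. The largest rises in the combination were those of ACPP, prostatic acid phosphatase (5.65 ± 0.07, adjusted p = 6.6e-37), the transcription factor MAF (4.59 ± 0.16, adjusted p = 8.7e-25) and NNMT, a nicotinamide methyltransferase (3.09 ± 0.26, adjusted p = 2.6e-13).

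Among the lower genes of that list, NCAPD3, a condensin subunit, changed by -2.85 ± 0.08 with the combination (adjusted p = 3.1e-28), CENPN, a centromere protein, by -2.14 ± 0.07 (adjusted p = 1.7e-25) and INSIG1, a regulator of sterol synthesis, by -1.99 ± 0.06 (adjusted p = 6.7e-26). NCAPD3 was also lower with AKTi (-0.90 ± 0.07) and with EZH2i (-1.47 ± 0.07). FASN, the fatty acid synthase, was lower in the combination too (-1.77 ± 0.06) and was singled out after its values were seen.

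Of 9 genes that androgens repress, 4 were higher and 2 lower with AKTi, 6 and 1 with EZH2i, and 5 and 1 with the combination. Over all genes the shares higher were 20.6%, 32.6% and 38.0% and the shares lower 21.9%, 31.5% and 35.2%, and 2 of 9 lower with AKTi is at that share. ACKR3, a chemokine scavenging receptor, was higher by 2.22 ± 0.08, 2.59 ± 0.08 and 3.58 ± 0.08. OPRK1, the kappa opioid receptor, also singled out after its values were seen, had no count in DMSO, 250 counts over the EZH2i libraries and 461 over the combination libraries, which is at least 84.3-fold and at least 161-fold higher against a floor of 3 counts over the DMSO libraries. UGT2B15, which inactivates androgens by glucuronidation, changed by -2.60 ± 0.18 in the combination (adjusted p = 1e-15), and its near-identical relatives make its counts uncertain. Its relative UGT2B17, on the same list, was higher with AKTi (1.00 ± 0.215, adjusted p = 2.1e-04), where UGT2B15 was lower (-0.51 ± 0.15). UGT2B17 had a mean of 57.3 normalized counts in DMSO and 50.3 in the combination.

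Chaperones keep steroid receptors in a state that can bind hormone, and FKBP5 belongs to the same complexes. All 12 genes for its chaperones and co-chaperones were lower with EZH2i and with the combination, and 9 were lower and 1 higher with AKTi, where 31.5%, 35.2% and 21.9% of all genes were lower with EZH2i, the combination and AKTi. Their median log2 fold changes were -0.34, -0.77 and -1.33 in the 3 arms, beside the all-gene medians given above. In the combination FKBP4, the co-chaperone paralogous to FKBP5, changed by -1.98 ± 0.06 (adjusted p = 2.8e-27), STIP1, which links HSP70 to HSP90, by -1.91 ± 0.06 (adjusted p = 1.7e-26) and HSPA8, a constitutive HSP70, by -1.67 ± 0.05 (adjusted p = 5e-26).

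Coactivators, corepressors and partner factors are the proteins through which the receptor acts on its genes. Of 16 tested among 18, 9 were higher and none lower with AKTi, 8 higher and 2 lower with EZH2i (12 and 0 when scaled by library size only, 12 and 2 by the upper quartile), and 13 and 3 with the combination. The shares of all genes called higher were 20.6%, 32.6% and 38.0%, and those called lower 21.9%, 31.5% and 35.2%. FOXP1, a forkhead factor, was higher by 0.49 ± 0.11, 1.05 ± 0.10 and 2.38 ± 0.10. NCOA2, a p160 coactivator, was higher by 0.51 ± 0.07, 0.85 ± 0.06 and 1.42 ± 0.06. HOXB13, a prostate homeobox factor, was higher with AKTi (0.41 ± 0.06, adjusted p = 1.1e-07), gave 0.10 ± 0.06 with EZH2i (adjusted p = 0.096; called higher at 0.25 with library size only) and was lower with the combination (-0.53 ± 0.06, adjusted p = 1e-10).

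FKBP5 also answers to glucocorticoids. Of 7 other genes of that response, 5 were higher and 2 lower with AKTi (1 lower when scaled by library size only or by the upper quartile), 6 and 1 with EZH2i, and 6 and 0 with the combination (7 and 0 under these scalings). Among all genes, 20.6%, 32.6% and 38.0% were higher and 21.9%, 31.5% and 35.2% lower in the same arms. TSC22D3, a leucine zipper protein induced by glucocorticoids, was higher by 0.84 ± 0.06, 1.48 ± 0.06 and 3.21 ± 0.06, and PER1, a clock gene, by 0.51 ± 0.11, 0.98 ± 0.11 and 1.46 ± 0.10. ERRFI1, an inhibitor of EGFR signalling, was lower with AKTi (-0.64 ± 0.08) and with EZH2i (-0.38 ± 0.08) and gave 0.01 ± 0.08 with the combination (adjusted p = 0.92). SGK1, a kinase related to AKT, was lower with AKTi (-0.61 ± 0.23, adjusted p = 0.033, and not called at -0.55 under these scalings) and higher with EZH2i (2.16 ± 0.18) and the combination (0.92 ± 0.19). The glucocorticoid receptor gene NR3C1 was near the limit of detection, with 6 counts over the DMSO libraries, 0 with AKTi, 36 with EZH2i (24 of them in 1 library) and 115 with the combination (26 to 61 per library). NR3C2, the mineralocorticoid receptor gene, was higher by 0.88 ± 0.09, 1.99 ± 0.09 and 2.97 ± 0.09.

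PMEPA1 is shared with the TGF-beta response. Of 6 tested among 8 other genes of that response, 2 were higher and 1 lower with AKTi (3 higher, with BAMBI, when scaled by library size only or by the upper quartile), 5 and 1 with EZH2i, and 5 and 1 with the combination. The all-gene shares were 20.6% higher and 21.9% lower with AKTi, 32.6% and 31.5% with EZH2i, and 38.0% and 35.2% with the combination, and 1 of 6 lower with AKTi is near that share. LTBP2, a matrix protein related to the latent TGF-beta binding proteins, was higher by 1.97 ± 0.15, 2.26 ± 0.14 and 3.34 ± 0.14, and BAMBI, a decoy receptor, by 1.80 ± 0.07 with EZH2i and 2.60 ± 0.07 with the combination. SMAD6, an inhibitory SMAD, was the one lower gene (-0.91 ± 0.10 in the combination, adjusted p = 1.6e-10).

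Genes released when AKT is blocked were also listed. The numbers called were the same with EZH2i alone as with AKTi, so these numbers are no check that AKT was blocked. The genes and sizes were not all the same. INSR, the insulin receptor gene, was higher with AKTi (0.54 ± 0.08). With EZH2i it was not called (0.15), although it was called at 0.30 with library size only. For AKT inhibition itself, the paper reports immunoblots of its targets in these cells. Of 6, 4 were higher and 1 lower with AKTi, 4 and 1 with EZH2i, and 5 and 0 with the combination, beside 20.6%, 32.6% and 38.0% of all genes higher and 21.9%, 31.5% and 35.2% lower. The lower gene, the phosphatase gene PHLPP2 (-0.29 ± 0.10 with AKTi, -0.35 ± 0.10 with EZH2i), was not called with either agent when scaled by library size only, nor with AKTi when scaled by the upper quartile. IRS2, an insulin receptor substrate, was higher by 2.84 ± 0.17, 1.44 ± 0.19 and 4.65 ± 0.15, and ERBB3, a receptor of the EGFR family, by 0.53 ± 0.05, 0.74 ± 0.05 and 1.47 ± 0.05.

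**Figure D5:**
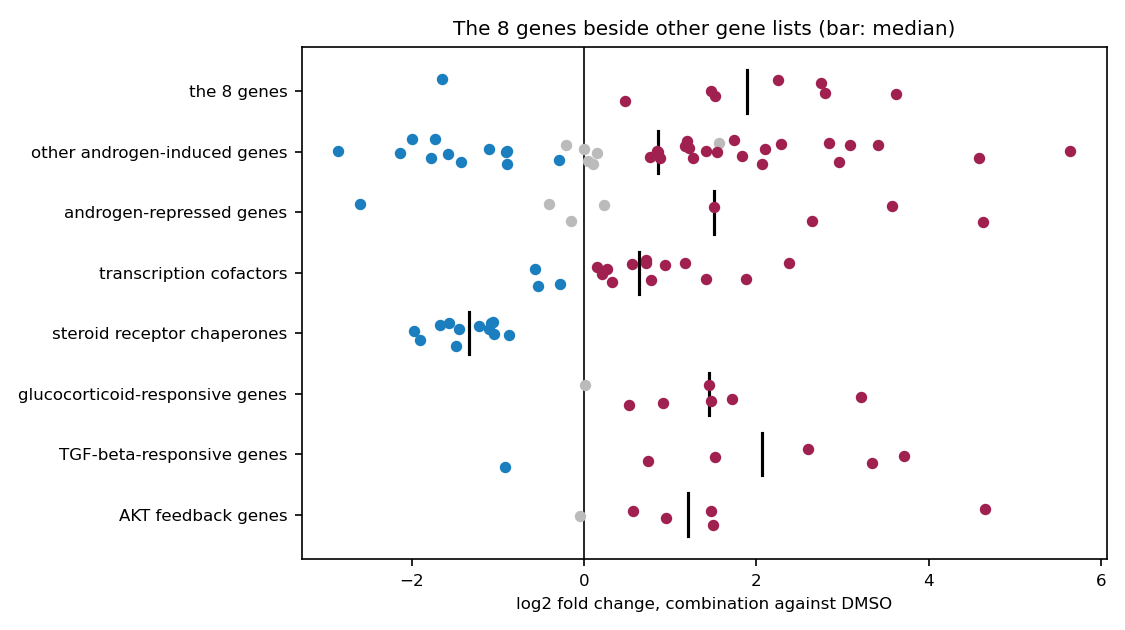
Log2 fold change with the combination against DMSO (horizontal axis) for each tested gene of 8 lists, coloured red where called higher, blue where called lower and grey otherwise, with a bar at the list median (OPRK1, without counts in DMSO, is left out of the points but kept in the median). The chaperones are all to the left of 0, from -1.98 to -0.87, and 7 of the 8 genes described here are to the right.

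The cells carried the markers of their labelled type. All 7 luminal markers were tested, and their summed level was 2269 to 2487 TPM in DMSO, 2972 to 3054 with AKTi, 3088 to 3300 with EZH2i and 3433 to 3548 with the combination, so it moved with the 8 genes. The 3 basal markers summed to at most 0.54 TPM in any library, with 1 of them at 0 in all, and the 4 immune markers to at most 1.39, also with 1 at 0 in all. The 5 stromal markers summed to 1.69 to 2.64 TPM without EZH2i and 4.64 to 7.72 with it. The 3 endothelial markers summed to 0.71 to 0.91 TPM in DMSO, 1.13 to 1.39 with AKTi, 1.96 to 2.17 with EZH2i and 1.85 to 2.67 with the combination, and the 1 tested, VWF, was higher in each treated arm (0.61 ± 0.23, 1.22 ± 0.21 and 1.24 ± 0.21). The 5 neuroendocrine markers summed to 1.08 to 1.55 TPM without EZH2i and 1.62 to 2.41 with it. Their part in the results above was not tested. In bulk RNA, fewer cells of a kind and less RNA per cell cannot be told apart.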

How the data were processed

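C4.2B libraries of polyA RNA were compared in 4 arms of 3. The authors used STAR for alignment to hg38 and HTSeq for counting. They deposited whole-number counts and, as a signal, DESeq2-normalized counts, in which all counts of a library were divided by 1 common factor. Versions and the annotation are not given in the sources used here, and neither is the strand setting. Arms were taken from the sample labels. Counts were tested with edgeR 4.0.16 in R 4.3.3 (filterByExpr, minimum count 10 and total 15, TMM, quasi-likelihood test, 1 mean per arm over 12 libraries), with Benjamini-Hochberg adjustment over 16646 genes at 0.05. Each contrast used the same fit. Pairs of libraries of an arm differed by more than sampling noise (chi-square per gene 2.53 to 7.5).

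The members and the other lists, which were written from general knowledge, were chosen with earlier results of these data known. From each list up to 3 called genes with the largest rise and 3 with the largest fall per contrast with DMSO were named (mean of at least 1 log2 CPM), any gene of a list of 7 or fewer, and the nearest genes of each member. FASN and OPRK1 are named outside this rule, after their values were seen. The receptor gene is not analysed here, and some genes that met the rule are not reported. Promoters came from RefSeq (GRCh38.p14). Alternatives were DESeq2 1.42.0, other scalings and filters, a fit of only the arms compared, leaving out each library, and a replicate block. The edgeR step was run on simulated data in which a small set of genes changed, in the combination arm only. Far more genes changed in these data, so the simulation did not test the scaling.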

Additional observations from a re-analysis of the deposited data

Results flagged for a closer look

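For 6 of the 8 genes, the effect of AKTi differed between cells with and without EZH2i, by the interaction term of the edgeR fit (Benjamini-Hochberg adjusted p under 0.05). The AKTi log2 effect with EZH2i minus that without it was -0.94 for TMPRSS2, -0.94 for SLC45A3, -0.97 for PMEPA1, -0.32 for KLK3, -0.31 for FOXA1 and -0.55 for FKBP5. For FKBP5, which fell, this was a larger fall in the presence of EZH2i, and for the other 5 a smaller rise. Every AKTi library and every combination library lay on the same side of DMSO for each of these genes. Arms of 3 libraries are too small for a check of single outlying libraries.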

How the results depend on the processing

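Over the 7 contrasts, 1038 alternative values of the 8 genes' log2 fold changes kept their direction and call, 10 were newly called, 8 lost their call and 0 reversed. The replicate letters did not pair the libraries (18 correlations of same-letter libraries from -0.058 to 0.069, with 4 of 12 libraries closest to their own letter), and with a replicate block 7 of the 8 genes were higher and 1 lower in each contrast with DMSO, as without it. Genes lower with EZH2i against AKTi were 2, and 1 (FKBP5) with at least 1 count in total, at least 10 counts in every library, library size only or the upper quartile, and 1 to 2 when each library was left out. With at least 10 counts in every library, 1 interaction above 0 was called (ABCC4, 0.20, adjusted p = 0.04). The other androgen-induced genes lower with AKTi were 8, and 5 with library size only or the upper quartile. The KLK3 to KLK2 difference of AKTi from DMSO (-0.03) ran from -0.0713 to 0.0178 when each library was left out, and reversed without DMSO replicate A. The causes of these changes were not tested. Depth did not limit the 8 genes, and 3 libraries an arm limit the exact tests to p = 0.1.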
